A study of Mus musculus with 8 samples.

Results

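The Notch receptors, ligands and targets described here were 10 genes, chosen by name: the receptor genes Notch1, Notch2, Notch3 and Notch4, the ligand genes Dll1, Dll4, Jag1 and Jag2, and the target genes Hes1 and Hey1. They were 10 of the 18540 genes in the deposited table, and all 10 were among the 15147 genes that passed the low-count filter. RNA was sequenced from the skin wounds of mice after 15 days of treatment, in 4 control samples, numbered 1, 2, 3 and 5, and 4 Z1C2Z samples, numbered 1, 2, 4 and 5. Z1C2Z is a ZnO2/CeO2@ZIF-8 nanocomposite, zinc peroxide and cerium oxide held in a zeolitic imidazolate framework, in its version with the higher share of CeO2. It was injected around the wound at 100 μg/kg. Control mice received phosphate-buffered saline. The sample titles separate a control and an experimental group without naming the composite. The study's text on the sequencing calls it ZCZ, a name that also covers the version with less CeO2, and Z1C2Z is taken here from the heading of the study's sequencing figure. Wounds were circular, 10 mm across, with 2 on the back of each mouse. Both C57BL mice of 6 weeks and diabetic db/db mice of 10 weeks, which lack a working leptin receptor, were used, and the sources used here do not say which strain the sequenced samples came from or which samples shared a mouse. The p-values below therefore measure only the spread between these samples.

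Notch receptors are cut and presented at the cell surface, where a Delta-like or Jagged ligand on a neighbouring cell triggers a further cleavage by ADAM proteases and γ-secretase. The freed intracellular domain enters the nucleus and, with the DNA-binding protein RBPJ and a Mastermind protein, switches on genes such as those of the Hes and Hey repressor families. In skin the pathway is known for driving keratinocytes out of the basal layer and for its part in the hair follicle, while in blood vessels Dll4 and Notch4 belong to the endothelium and Notch3 to the smooth muscle cells and pericytes around it.

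Total counts ran from 28856790 to 38249438 in control samples and from 33966536 to 38974888 in Z1C2Z samples. Levels are given as CPM, counts scaled to a common library size. The skin-defining markers Krt5 (1590 to 1911 and 1679 to 2251 CPM in the control and Z1C2Z groups), Krt14 (1972 to 4042 and 2141 to 3012 CPM) and Col1a1 (10713 to 17502 and 8100 to 12786 CPM) were abundant in every sample. Hair markers separated the groups. The summed level of 10 markers of the hair matrix, inner root sheath and shaft was 583 to 3568 CPM in control samples and 4364 to 15217 CPM in Z1C2Z samples. Of the 10, 9 were called higher, where 4.28% of all genes tested were, and the tenth, Tchh, was at an adjusted p of 0.0568 (edgeR). The highest sums, 15217 and 14691 CPM, were those of Z1C2Z-2 and Z1C2Z-4. Hair marker level and treatment cannot be told apart in these samples.

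To show the sequence at the start of a receptor gene that rose and of a ligand gene with the lowest fold change of the 10 genes, the 250 bases before the RefSeq start (GRCm38.p6) are given 5′ to 3′ for Notch1, at chr2:26503823-26504072 on the minus strand, and for Dll4, at chr2:119325534-119325783 on the plus strand. Capitals mark GC boxes, the letters GGGCGG on either strand.
Notch1: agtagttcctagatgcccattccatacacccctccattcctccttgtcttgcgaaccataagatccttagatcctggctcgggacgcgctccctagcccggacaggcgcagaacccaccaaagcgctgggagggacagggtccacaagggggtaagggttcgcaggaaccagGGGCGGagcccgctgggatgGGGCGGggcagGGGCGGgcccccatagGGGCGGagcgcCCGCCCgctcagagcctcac
Dll4: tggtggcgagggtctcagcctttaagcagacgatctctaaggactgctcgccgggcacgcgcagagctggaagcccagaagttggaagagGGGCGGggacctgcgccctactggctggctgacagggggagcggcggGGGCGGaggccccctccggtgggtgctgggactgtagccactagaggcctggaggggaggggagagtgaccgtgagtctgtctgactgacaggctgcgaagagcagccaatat
The Notch1 window held 5 GC boxes, the nearest beginning 20 bases before the start, and the Dll4 window held 2, beginning 160 and 113 bases before it. Windows were found for 8 of the 10 genes, all but Hes1 and Hey1. Of these, Notch2 and Jag2 also held 5 GC boxes, Notch3 held 4, and Notch4, Jag1 and Dll1 held none. Across 32851 promoter windows of the same length, 32.7% held a GC box. The core letters bound by RBPJ, TGGGAA, were searched on both strands and were in none of the 9 windows of these 8 genes (Dll1 has 2), against 21.6% of all windows. GC boxes were found in windows of genes that rose and of genes that did not. The RefSeq starts of Jag2, Jag1 and the first Dll1 window lay 281, 124 and 153 bases inside an annotated GENCODE transcript. These windows may therefore hold transcribed bases.

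A receptor gene and both Jagged ligand genes rose in Z1C2Z wounds: Notch1 by 1.58-fold, Jag1 by 1.33-fold and Jag2 by 1.31-fold. None of the 10 genes was called lower. The call was an adjusted p under 0.05 in the quasi-likelihood test of edgeR, adjusted by Benjamini-Hochberg over all 15147 genes. By that rule 3 of the 10 genes were higher, where 4.28% of all genes tested were, and 0 were lower, where 3.85% of all genes were (8.13% in either direction). At an unadjusted p under 0.05, 5 of the 10 passed, where 28% of all genes did, with Hes1 above control and Dll4 below it as the additions. DESeq2 called these 5 as well, and over the whole table it called 1239 genes higher and 1504 lower of 18540. None of the 3 called genes changed by more than 1 on the log2 scale, the size reached with a call by 3.4% of all genes, 2.15% upward and 1.25% downward. Without both Z1C2Z-2 and Z1C2Z-4, the samples with the highest hair marker sums, edgeR called 0 genes in the whole table (1980 at an unadjusted p under 0.05), and 3 of the 10 genes passed the unadjusted threshold. That fit was added after the data were seen and holds fewer samples, and Notch1 kept a log2 fold change of 0.65 in it. Leaving out control-5 alone, or Z1C2Z sample 1, 2 or 4 alone, also left no gene called. The part of hair content in these losses was not tested. The median log2 fold change was 0.15 over the 10 genes and 0.0086 over all genes.

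**Figure D1:**
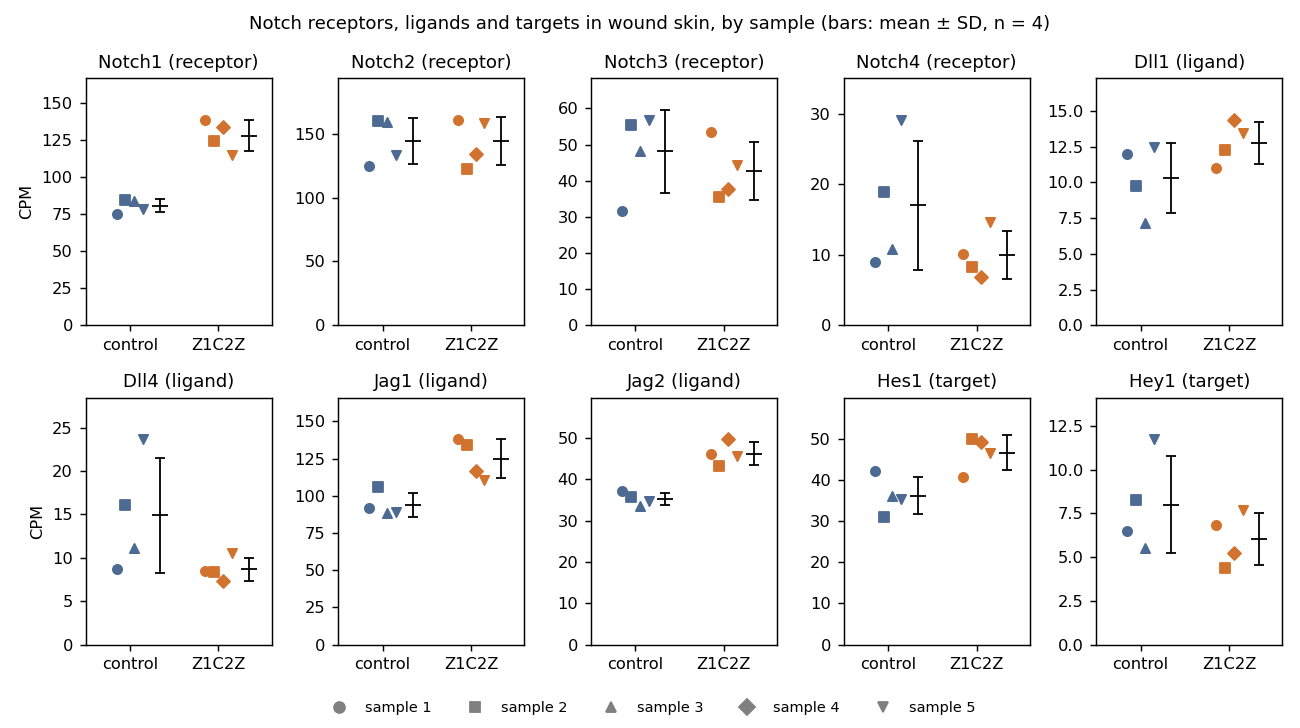
CPM of each of the 10 genes (vertical axes, linear from 0) in the 4 control and 4 Z1C2Z samples, 1 point per sample, with the group mean and SD. Notch1, Jag1 and Jag2 show Z1C2Z points that are all above the control points, while the other 7 genes overlap.

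Notch1, the receptor best known from the suprabasal epidermis and the hair follicle, was at 75.2, 84.7, 84.0 and 78.6 CPM in controls 1, 2, 3 and 5, and at 138.6, 124.1, 133.4 and 114.7 CPM in Z1C2Z samples 1, 2, 4 and 5. Every Z1C2Z sample was above every control sample. Within the Z1C2Z group, Z1C2Z-5 was lowest in both Notch1 and the hair marker sum. Z1C2Z-1, the highest in Notch1, had a hair sum of 8952 CPM, below those of Z1C2Z-2 and Z1C2Z-4. The part of hair content in the Notch1 result was not tested. The means were 80.6 ± 4.55 and 127.7 ± 10.5 CPM (SD, n = 4 each), and the log2 fold change was 0.66 ± 0.09 (SE, 95% interval 0.46 to 0.86, adjusted p = 0.0280, edgeR). By unadjusted p it ranked 17 of the 15147 genes. An exact two-sided permutation test of the mean log2 CPM gave p = 0.0286, the smallest that 4 against 4 samples allow. The call was lost when control-5 or Z1C2Z sample 1, 2 or 4 was left out (highest adjusted p 0.0888, edgeR), in fits that called no gene at all, and the log2 fold change stayed between 0.63 and 0.71 in the 8 fits that each left out 1 sample. Opposite-strand transcripts of 0610009E02Rik and Gm13568 cover 7.5% and 2.91% of the Notch1 exons, and because the counting strand is not given in the sources used here, their reads cannot be told apart from those of Notch1.

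Notch2, the most abundant receptor of this skin per length, was at 124.9, 160.2, 158.9 and 132.9 CPM in the control samples and at 160.9, 122.4, 134.3 and 158.3 CPM in the Z1C2Z samples, in the order given for Notch1. The groups overlapped fully, and the highest and the lowest of the 8 values were both Z1C2Z samples. Its log2 fold change was -0.0028 ± 0.13 (SE, 95% interval -0.29 to 0.28, adjusted p = 0.991, edgeR), or 0.820 to 1.21 times control as an interval. Gm42820, on the same strand, shares 5.02% of the Notch2 exons.

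Notch3, the receptor of vascular smooth muscle and pericytes, was at 31.7, 55.5, 48.3 and 56.9 CPM in control and at 53.5, 35.4, 37.8 and 44.2 CPM in Z1C2Z samples. Control-1 lay below all Z1C2Z samples and the other control samples lay mostly above them. The log2 fold change was -0.17 ± 0.20 (SE, adjusted p = 0.600, edgeR), and the opposite-strand Gm17276 covers 6.03% of the Notch3 exons. With 1 sample left out it ran from -0.33 without control-1 to -0.081 without control-5. Notch4, an endothelial receptor, was at 8.99, 19.0, 10.9 and 29.2 CPM in control and at 10.1, 8.24, 6.88 and 14.7 CPM in Z1C2Z samples. Control-5 stood highest, and control-1 and control-3 lay within the Z1C2Z range. The coefficient of variation was 54.1% in the control group and 34.3% among Z1C2Z samples. The fitted change of -0.77 ± 0.38 (SE, 95% interval -1.63 to 0.08, adjusted p = 0.219, edgeR) did not pass the test, and without control-5 it was -0.38 (adjusted p = 0.532, edgeR).

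Among the ligands, Jag1, which is found in keratinocytes, hair precursor cells and vessel walls, was at 91.4, 105.8, 88.7 and 89.0 CPM in control and at 138.3, 134.1, 116.8 and 110.7 CPM in Z1C2Z samples. The groups did not overlap, but control-2 and Z1C2Z-5 were only a few CPM apart. Its log2 fold change was 0.42 ± 0.10 (SE, 95% interval 0.18 to 0.65, adjusted p = 0.0449, edgeR, exact permutation p = 0.0286). The call was kept without Z1C2Z-5 and lost without any of the other 7 samples, with a highest adjusted p of 0.126 (edgeR).

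Jag2, the Jagged ligand of the basal epidermis and the hair bulb, was the steadiest of the 10 genes within groups, with coefficients of variation of 4.19% and 5.95%. Its values were 37.2, 35.6, 33.7 and 34.9 CPM in control and 46.2, 43.2, 49.9 and 45.6 CPM in Z1C2Z samples. Every Z1C2Z sample was above every control sample, by a log2 fold change of 0.39 ± 0.08 (SE, 95% interval 0.21 to 0.57, adjusted p = 0.0306, edgeR, exact permutation p = 0.0286). It was called without control-1 and without Z1C2Z-5, and lost the call when any of the other 6 samples was left out (highest adjusted p 0.0954, edgeR).

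Dll4, the ligand of sprouting and arterial endothelium, was at 8.74, 16.0, 11.1 and 23.7 CPM in control and at 8.43, 8.32, 7.36 and 10.6 CPM in Z1C2Z samples. The 3 lowest values were Z1C2Z samples, and Z1C2Z-5 lay above control-1. The log2 fold change of -0.78 ± 0.29 (SE, 95% interval -1.43 to -0.14, adjusted p = 0.115, edgeR, exact permutation p = 0.0571) did not pass the adjusted threshold, although DESeq2 called it lower (adjusted p = 0.0411), as did edgeR without control-1 (adjusted p = 0.0481). Without control-5 the log2 fold change of Dll4 shrank to -0.46 (adjusted p = 0.274, edgeR). Dll1, a ligand of basal keratinocytes and hair follicle cells, was at 12.0, 9.71, 7.13 and 12.4 CPM in control and at 11.0, 12.2, 14.4 and 13.4 CPM in Z1C2Z samples. The groups overlapped, with the 2 highest values in Z1C2Z-4 and Z1C2Z-5, and the log2 fold change was 0.31 ± 0.18 (SE, adjusted p = 0.302, edgeR). An opposite-strand transcript, A930024N18Rik, covers 20.5% of the Dll1 exons, and Gm14207 covers 5.56% of those of Dll4.

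Of the target genes, Hes1, a repressor that holds back differentiation, was at 42.1, 31.0, 36.2 and 35.3 CPM in control and at 40.6, 50.0, 49.2 and 46.4 CPM in Z1C2Z samples. Only control-1 and Z1C2Z-1 crossed over. The log2 fold change was 0.36 ± 0.11 (SE, 95% interval 0.11 to 0.62, adjusted p = 0.0760, edgeR, exact permutation p = 0.0571), and DESeq2 called it higher (adjusted p = 0.0389). Hey1, a repressor strongly expressed in endothelium, was at 6.47, 8.27, 5.51 and 11.8 CPM in control and at 6.82, 4.38, 5.25 and 7.68 CPM in Z1C2Z samples. The groups overlapped, and control-5 was again the highest sample, as it was for Notch3, Notch4 and Dll4. Its log2 fold change was -0.41 ± 0.27 (SE, 95% interval -1.01 to 0.19, adjusted p = 0.347, edgeR), from -0.55 without control-3 to -0.16 without control-5.

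Counted over samples rather than by the fitted test, 3 of the 10 genes had groups that did not overlap, all of them higher in Z1C2Z, where 8.44% of all genes tested were separated in that direction, and 0 were separated downward, where 8.82% of all genes were (17.3% in either direction).

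**Figure D2:**
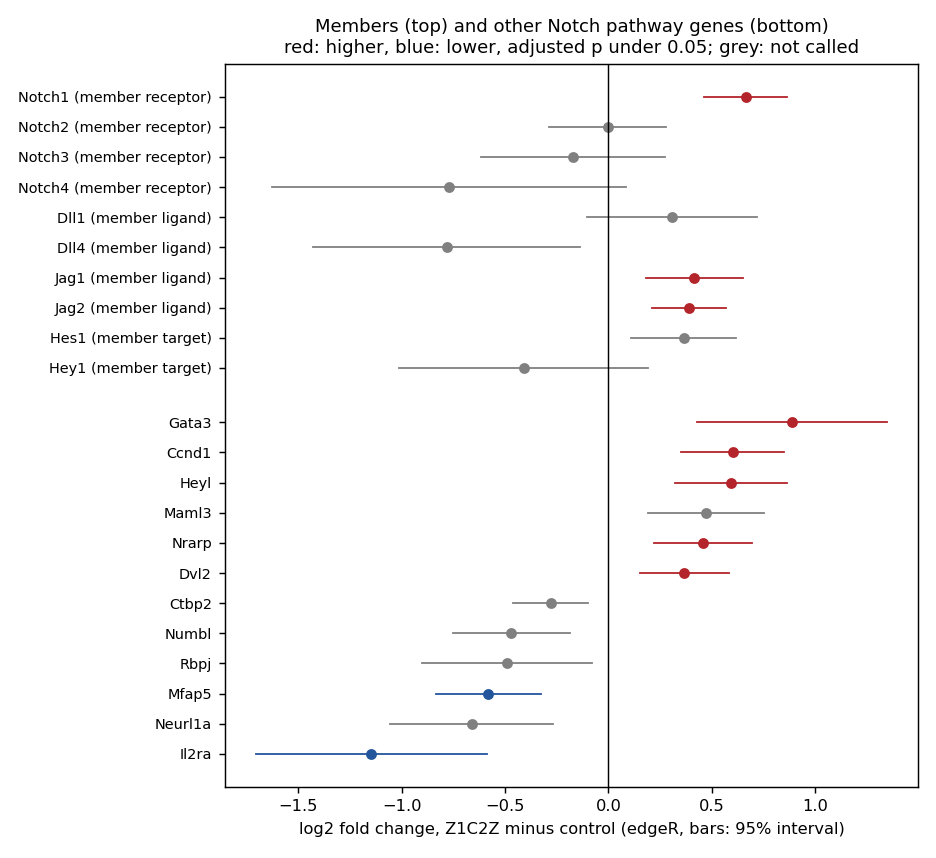
Log2 fold change (horizontal axis, Z1C2Z minus control, edgeR) of the 10 genes at the top and of the named genes of the wider pathway at the bottom, with points at the estimate and bars for the 95% interval. Red marks genes called higher and blue genes called lower, and among the 10 the intervals of Notch1, Jag1, Jag2 and Hes1 lie above 0 and that of Dll4 below it, with Notch1, Jag1 and Jag2 in red.

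Levels of different genes were compared per kilobase of exon, a scale chosen after the data were seen. In control wounds Hes1 (17.8 ± 2.25 CPM per kb, SD, n = 4) and Jag1 (16.1 ± 1.39) stood highest, followed by Notch2 (13.4 ± 1.67). Then came Notch3 (5.95 ± 1.43), Notch1 (5.67 ± 0.319), Jag2 (5.07 ± 0.213), Dll4 (3.87 ± 1.72), Hey1 (2.45 ± 0.846), Dll1 (2.45 ± 0.579) and Notch4 (2.11 ± 1.14). Neighbours in this order overlapped between samples, except for Jag1 with Notch2 and Notch2 with Notch3. In Z1C2Z wounds the order was Hes1 (22.8 ± 2.08 CPM per kb), Jag1 (21.5 ± 2.28), Notch2 (13.4 ± 1.74), Notch1 (8.97 ± 0.740), Jag2 (6.64 ± 0.395), Notch3 (5.28 ± 1.00), Dll1 (3.03 ± 0.346), Dll4 (2.25 ± 0.351), Hey1 (1.85 ± 0.457) and Notch4 (1.24 ± 0.425). Here Jag1 and Notch2, Notch2 and Notch1, Notch1 and Jag2, and Notch3 and Dll1 were the neighbours whose samples did not overlap. Notch3 thus ranked above Notch1 and Jag2 in control wounds and below them in Z1C2Z wounds.

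As a share of the summed per-length level of the 4 receptor genes, Notch1 made up 24.1%, 19.8%, 21.1% and 19.4% in the control samples and 29.9%, 34.2%, 34.3% and 26.8% in the Z1C2Z samples. The groups did not overlap (21.1 ± 2.14% and 31.3 ± 3.62%, SD, n = 4, exact two-sided permutation p = 0.0286). The share p-values were not adjusted over the receptor and ligand genes, and the Notch1 share comes from the same counts as its fold change. Notch2 remained the largest receptor share, at 49.6 ± 4.50% and 46.2 ± 1.86%, and Notch3 (21.7 ± 2.87% and 18.2 ± 1.51%) and Notch4 (7.62 ± 3.66% and 4.27 ± 1.27%) overlapped between groups. Among the ligands Jag1 held most of the sum in both groups, at 58.7 ± 4.56% and 64.2 ± 3.68%. Dll4 was 13.8 ± 5.23% of the ligand sum in control and 6.78 ± 1.30% in Z1C2Z samples, where Z1C2Z-5, at 8.71%, lay just above control-1, at 8.68% (exact permutation p = 0.0571). Jag2 and Dll1 also overlapped between groups, at 18.6 and 19.9% and at 8.88 and 9.12%.

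**Figure D3:**
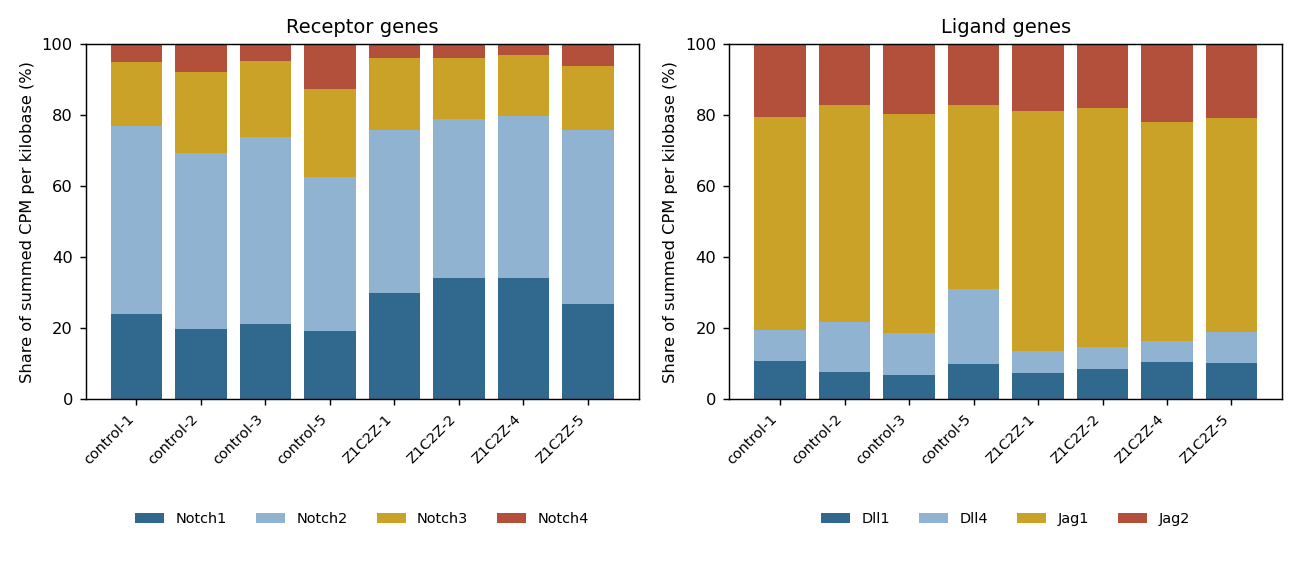
Share of each receptor gene in the summed receptor level and of each ligand gene in the summed ligand level (percent of CPM per kb, vertical axis), for each of the 8 samples. The Notch1 share is 19.4 to 24.1% in control samples and 26.8 to 34.3% in Z1C2Z samples, and the Dll4 share is widest in control-5, at 21.0%.

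The wound is a mixture of cells, and in bulk tissue fewer cells of a type and less RNA per cell cannot be told apart. The genes known from vessels were therefore set beside vessel markers. The summed level of 8 endothelial markers was 335.9, 774.9, 603.6 and 907.6 CPM in control and 419.5, 327.6, 292.9 and 544.0 CPM in Z1C2Z samples. Control-5 was the highest sample of this sum, as it was of Notch4 and Dll4, and the groups overlapped. None of the 8 markers was called by edgeR, 5 of the 8 passed an unadjusted p under 0.05 (28% of all genes), and 7 of the 8 had fold changes under 0, with a median of -0.73 on the log2 scale. Pecam1, the most abundant, was at 232 ± 83.1 and 134 ± 35.0 CPM (SD, n = 4, adjusted p = 0.111, edgeR). Cldn5 went the other way, at 9.07 and 11.9 CPM (log2 fold change 0.39, adjusted p = 0.357, edgeR). Relative to the mean log2 level of these markers in the same sample, Notch4 differed between groups by -0.15 (exact permutation p = 0.486) and Dll4 by -0.17 (p = 0.371, exact permutation), beside fold changes of -0.77 and -0.78 for the genes themselves.

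Notch3 was set beside 8 mural cell markers, whose sum was 923 to 1774 CPM in control and 757 to 990 CPM in Z1C2Z samples. Of the 8, 2 (Acta2 and Cnn1) were called lower, where 3.85% of all genes were. At an unadjusted p under 0.05, 7 of the 8 passed (28% of all genes). All 8 had fold changes under 0, with a median of -0.65 on the log2 scale and the highest, that of Cspg4, at -0.054. Notch3 itself was at -0.17 with overlapping groups. Relative to these markers Notch3 was higher by 0.43 on the log2 scale in Z1C2Z wounds, in 4 of 4 samples above every control sample (exact permutation p = 0.0286, adjusted over 6 such comparisons 0.0571). Beside 7 basal keratinocyte markers, whose sum was 4575 to 7254 CPM in control and 4946 to 6206 CPM in Z1C2Z samples, Notch1 was higher by 0.64 and Jag2 by 0.36, again with no overlap (exact permutation p = 0.0286 and adjusted 0.0571 for both), and Dll1 was higher by 0.31 with overlap (exact permutation p = 0.114). None of the 6 comparisons passed after adjustment. Those at an adjusted 0.0571 already had the smallest p that 4 against 4 samples allow, 0.0286 (exact permutation). For them the lack of a pass therefore cannot tell a difference from none. The basal markers had a median log2 fold change of -0.057, so levels relative to them stayed close to the fold changes of the genes themselves. Levels relative to suprabasal and hair markers, whose medians were 0.45 and 2.55, were not computed.

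**Figure D4:**
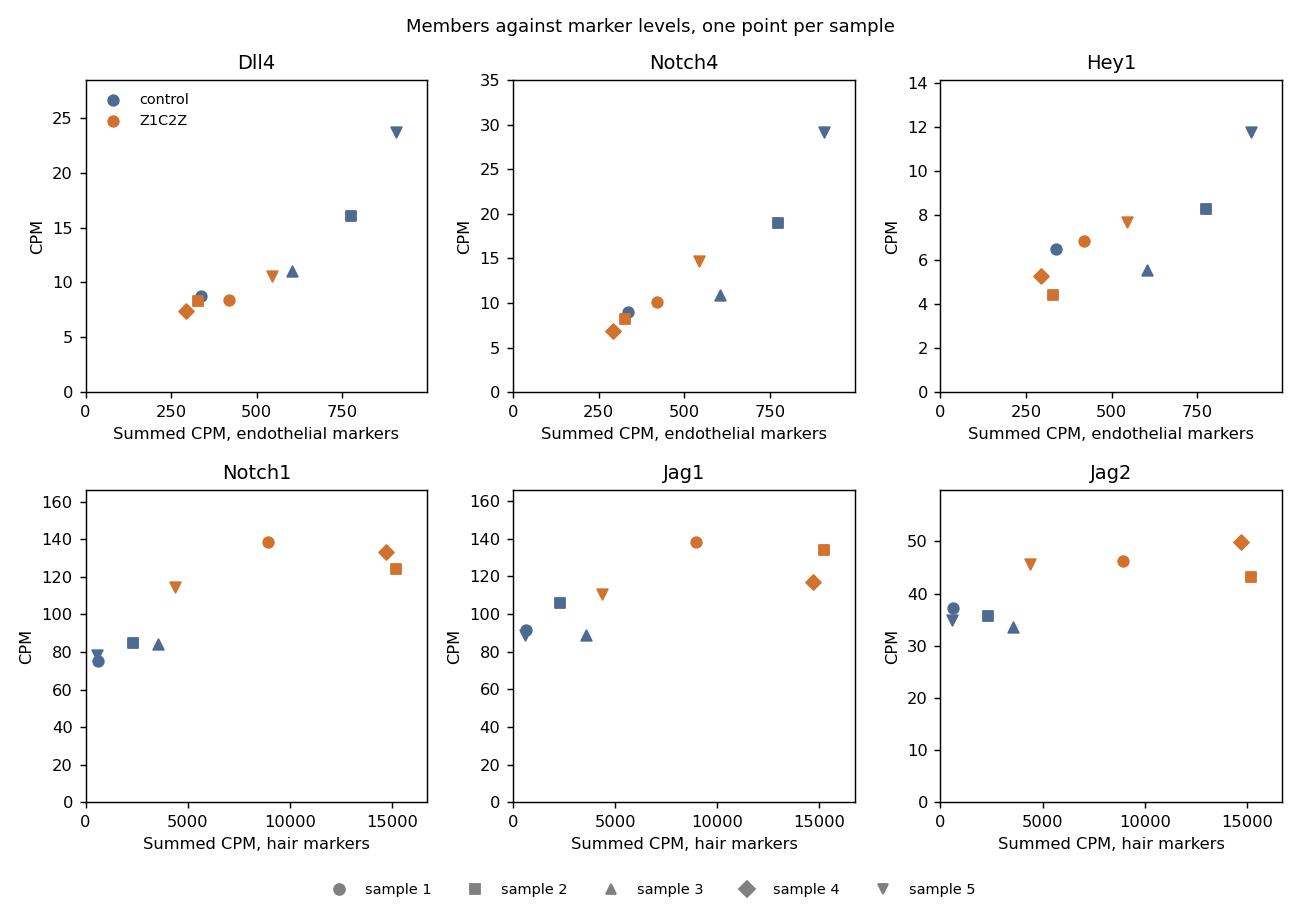
CPM of Dll4, Notch4 and Hey1 against the summed CPM of the endothelial markers (top row) and of Notch1, Jag1 and Jag2 against that of the hair markers (bottom row), 1 point per sample, blue for control and orange for Z1C2Z, with the marker shape giving the sample number. In the top row control-5 is highest on both axes, at 907.6 CPM of endothelial markers, and in the bottom row the Z1C2Z points lie above and to the right of the control points.

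The part of the other cell types in the results for the 10 genes was not tested, and the levels of their markers were as follows. Suprabasal keratinocyte markers summed to 7315 to 12504 CPM in control and 11268 to 16062 CPM in Z1C2Z samples, with 7 of 7 fold changes above 0 and 0 called by edgeR (1 at an unadjusted p under 0.05). Fibroblast markers summed to 31101 to 42782 and 24047 to 33374 CPM, with 2 of 5, Lum and Dcn, called lower, where 3.85% of all genes were. All 5 were at an unadjusted p under 0.05. Skeletal muscle markers did not overlap, at 2035 to 4231 and 1808 to 2007 CPM, with 1 of 6, Acta1, called lower and 3 at an unadjusted p under 0.05. Lymphatic markers summed to 166 to 339 and 111 to 181 CPM, with 1 of 4, Pdpn, called lower although its groups overlapped, and 3 at an unadjusted p under 0.05. Of the 4 lymphatic markers, 3 had fold changes under 0. Prox1 went the other way, at 7.92 and 9.28 CPM (log2 fold change 0.23, adjusted p = 0.495, edgeR). Neutrophil (566 to 1491 and 166 to 648 CPM), macrophage (918 to 1207 and 519 to 971 CPM), adipocyte (103 to 162 and 77.8 to 123 CPM) and T cell markers (11.4 to 30.4 and 14.3 to 23.9 CPM) had no gene called by edgeR. At an unadjusted p under 0.05, which 28% of all genes passed, the counts were 3 of 4, 1 of 5, 3 of 4 and 1 of 4 tested. No marker gene was at 0 in all samples.

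Beyond the 10 genes, 74 further pathway genes were listed by role, of which 73 were in the table and 67 were tested. Of these 67, 4 were higher and 2 lower, where 4.28% and 3.85% of all genes tested were, and their median log2 fold change was 0.037. The calls lay among target genes and in 1 ligand-like protein. Of 12 other target genes tested, 4 were higher and 1 lower. Ccnd1, which encodes cyclin D1, was at 122 ± 16.0 and 185 ± 14.1 CPM (SD, n = 4, log2 fold change 0.60 ± 0.11, SE, adjusted p = 0.0300, edgeR). Heyl, a Hey family repressor, was at 13.5 ± 1.26 and 20.3 ± 2.56 CPM (0.59 ± 0.12, adjusted p = 0.0306, edgeR), and Nrarp, a feedback inhibitor of the receptor's intracellular domain, at 57.5 ± 6.32 and 78.9 ± 6.65 CPM (0.46 ± 0.10, adjusted p = 0.0371, edgeR).

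Gata3, a transcription factor of the inner root sheath and of T cells, was at 73.2, 42.8, 49.3 and 40.6 CPM in control and at 84.2, 102.3, 116.0 and 78.2 CPM in Z1C2Z samples (log2 fold change 0.89 ± 0.20, SE, adjusted p = 0.0374, edgeR). Its highest values were in Z1C2Z-2 and Z1C2Z-4, the samples with the highest hair marker sums. Among controls its highest value was in control-1, with a hair marker sum of 633 CPM. Control-3, with the highest control sum of 3568 CPM, was at 49.3 CPM of Gata3. The part of hair content in the Gata3 result was not tested. In the other direction, Il2ra, the α chain of the interleukin-2 receptor, was at 14.7 ± 5.51 and 6.63 ± 1.19 CPM (log2 fold change -1.15 ± 0.25, SE, adjusted p = 0.0337, edgeR), with control-5 at 22.9 CPM. Mfap5, a microfibril protein that can bind Jagged 1, was at 255 ± 38.1 and 171 ± 5.62 CPM (-0.58 ± 0.11, SE, adjusted p = 0.0303, edgeR). These 6 calls were absent from the fits without control-2 or control-5 and without Z1C2Z sample 1, 2 or 4, where the highest adjusted p of any of the 6 was 0.107 (edgeR), and the fit without control-3 lost Nrarp and Gata3.

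The signalling machinery between ligand and target held no call in the reported edgeR fit, 0 of 50 genes where 8.13% of all genes were called. At an unadjusted p under 0.05, which 28% of all genes passed, the counts by group are given in parentheses. The calls of DESeq2 stand beside them, where DESeq2 called 1239 genes higher and 1504 lower of 18540 in the whole table. The groups were 6 receptor glycosylation genes (0 at an unadjusted p under 0.05, and 0 called by DESeq2), 10 genes of receptor cleavage (2 unadjusted and Furin and Aph1b called by DESeq2), 8 of the nuclear complex (2 unadjusted and Maml3 by DESeq2), 12 co-repressors (2 unadjusted and Ctbp2 and Tle3 by DESeq2) and 14 genes of endocytosis, ubiquitin transfer and inhibition (3 unadjusted and Numbl, Neurl1a and Dtx4 by DESeq2). With other settings of edgeR single genes were called: Neurl1a with RLE size factors (adjusted p = 0.0494), Numbl without control-1 (0.0296) and Tle3 without Z1C2Z-5 (0.0498). Closest to the threshold in the downward direction was Neurl1a, a ubiquitin ligase that acts on ligands, at 6.83 ± 0.854 and 4.32 ± 0.794 CPM (log2 fold change -0.66 ± 0.18, SE, adjusted p = 0.0506, edgeR). Dner, Cntn6, Hes3, Hes5, Hes7 and Ptcra were too low to be tested.

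The deposited KEGG annotation, a pathway label carried in the same table, gave the Notch signaling pathway to 48 genes outside the 10, of which 45 were tested. Of these 45, 2 were higher and 0 lower, where 4.28% and 3.85% of all genes tested were. Their median log2 fold change was 0.019. Besides Heyl, the gene called was Dvl2, better known from Wnt signaling, at 10.5 and 13.5 CPM (log2 fold change 0.37 ± 0.09, SE, adjusted p = 0.0484, edgeR). Dvl2 lost its call with RLE size factors (adjusted p = 0.0513), without a filter (0.0616), with at least 10 counts in every sample (0.0507) and in all 8 fits that left out 1 sample (adjusted p 0.0590 to 0.133), while DESeq2 kept it (0.00977). Maml3, a Mastermind coactivator, missed the threshold at 0.47 ± 0.12 (SE, adjusted p = 0.0502, edgeR). Below 0, Numbl, an inhibitor of Notch, was at -0.47 ± 0.13 (adjusted p = 0.0523, edgeR) and the co-repressor Ctbp2 at -0.28 ± 0.08 (adjusted p = 0.0639, edgeR). Rbpj, the DNA-binding partner of every Notch receptor, was at 183.0, 150.9, 148.5 and 180.1 CPM in control and at 147.5, 94.6, 87.4 and 142.1 CPM in Z1C2Z samples. Its groups did not overlap, yet Z1C2Z-1 came within a few CPM of control-3, and the log2 fold change of -0.49 ± 0.18 (SE, adjusted p = 0.120, edgeR) did not pass. No gene of this list was called lower by edgeR, while DESeq2 called 2, against 1504 of the 18540 genes in the whole table.

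**Figure D5:**
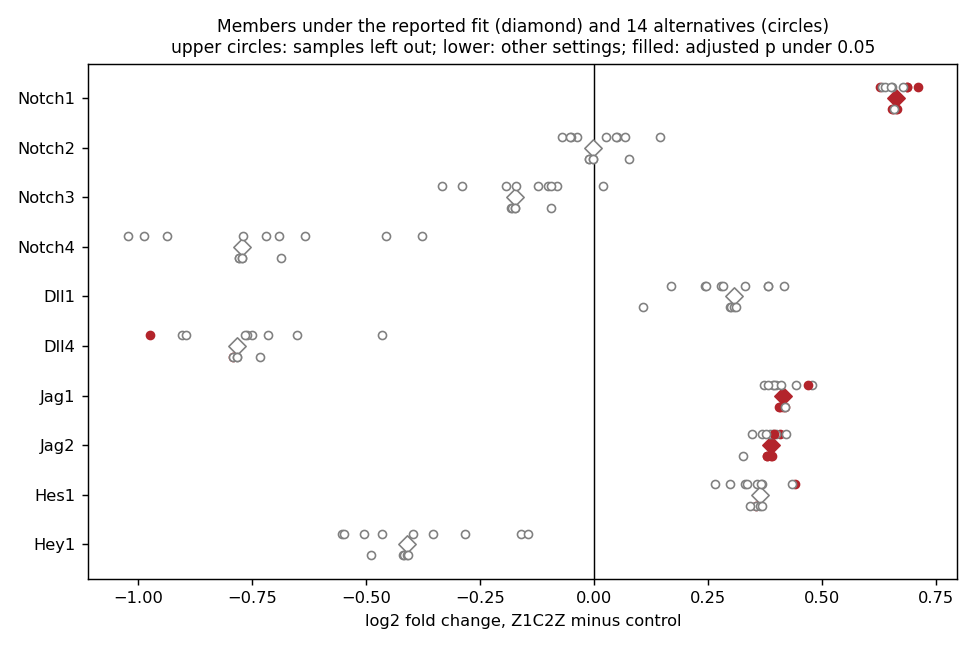
Log2 fold change of each of the 10 genes (horizontal axis, Z1C2Z minus control) in the reported fit (diamonds) and under the 14 alternatives (circles, with samples left out in the upper row of each gene and other settings in the lower), filled where the adjusted p was under 0.05. The values of Notch1 stay between 0.63 and 0.71, while those of Notch2 lie on both sides of 0.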

How the data were processed

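RNA from mouse wound skin was sequenced after ribosomal RNA removal with a dUTP second-strand protocol, per the labels. The authors deposited raw counts per gene for 8 samples. Aligner, counting tool, genome build and strand setting are not given in the sources used here. Totals were 28856790 to 38974888 counts. Groups were taken from the sample titles. Counts were filtered with filterByExpr, scaled by TMM and tested with edgeR 4.0.16 (quasi-likelihood, R 4.3.3), with Benjamini-Hochberg adjustment over 15147 genes and calls at an adjusted p under 0.05. CPM are TMM-scaled, and log2 CPM used a prior count of 2. Exact permutation tests used all 70 arrangements. Exon lengths were those of GENCODE M21, matched by symbol, with promoter windows from RefSeq GRCm38.p6. The genes and lists were chosen with earlier results of these data known. Named were the 10 genes, every called gene of the pathway and KEGG lists, the 3 genes per direction with the smallest p in each, and the leading and skin-defining markers where a list is discussed. Sample numbers 1, 2 and 5 occur in both groups, and the correlations of their deviations (-0.101, -0.0623 and 0.323) did not all exceed 0.1, so samples were not paired. Alternatives were DESeq2 1.42.0, RLE size factors, other filters, a prior count of 0.5, a replicate block and leaving out samples. In data simulated for this comparison, 200 of 15147 genes were changed. The test recovered 0% of changes of 0.5, 60.5% of changes of 1 and 92% of changes of 2 on the log2 scale. It also called 0, 6 and 8 unchanged genes. The real comparison had 1231 calls, which makes the adjusted threshold less strict, so these rates do not carry over to it. The KEGG and GO columns hold annotation.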

Additional observations from a re-analysis of the deposited data

Results flagged for a closer look

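In 3 of 98 groups of 4 samples tested, 1 sample stood apart from the other 3 by Dixon's test, where chance gives about 1 in 20. Jag1 was at 105.8 CPM in control-2, with the next control sample at 91.4 CPM. Il2ra was at 22.9 CPM in control-5, with the next control sample at 12.6 CPM. The Dll4 share of the summed ligand level was 8.71% in Z1C2Z-5, with the next Z1C2Z sample at 6.30%.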

How the results depend on the processing

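RLE size factors, no filter and at least 10 counts in every sample left the same 3 of the 10 genes called. DESeq2 called 4 higher and 1 lower (Dll4), and 1239 higher and 1504 lower over all genes, 9 and 6 of the other pathway genes, and 6 and 2 of the KEGG genes. RLE size factors, no filter and the count minimum of 10 each called 1 KEGG gene higher. With the sample number as a replicate block, 0 of the 10 were called (4 at an unadjusted p under 0.05), with adjusted p of 0.0744 for Notch1 (log2 fold change 0.66), 0.213 for Jag1 and 0.307 for Jag2, and the calls were 301 higher and 253 lower over all genes, 0 and 1 (Il2ra) of the pathway genes and 0 higher of the KEGG genes. The shared numbers are not known to pair samples. Leaving out 1 sample gave 0 to 886 higher and 0 to 868 lower over all genes, 0 to 3 and 0 to 1 of the 10, 0 to 6 and 0 to 3 of the pathway genes, and 0 to 2 and 0 to 1 of the KEGG genes. No gene was called without control-5 or without Z1C2Z sample 1, 2 or 4, where 3223, 4208, 3137 and 3100 genes had an unadjusted p under 0.05. Leaving out both Z1C2Z-2 and Z1C2Z-4, the samples with the highest hair marker sums, was added after seeing the data. It called 0 genes in every list (1980 of all genes at an unadjusted p under 0.05) and gave Notch1 a log2 fold change of 0.65 (adjusted p = 0.280). These fits hold fewer samples, and the cause was not otherwise tested. Notch2 changed sign in 6 of 14 alternatives, at 0.077 with the replicate block, at 0.15 without both samples and at 0.050, 0.049, 0.068 and 0.026 without control-2, control-3, Z1C2Z-2 and Z1C2Z-4 (range -0.071 to 0.068 over single samples left out), and Notch3 was at 0.021 without both. The other 8 genes kept their sign in 14 of 14. Differences of mean log2 CPM (100) did not all keep their direction. That of Notch2 was -0.0035 with all samples and 0.049 without control-2 or without control-3. Relative levels (60) kept their direction. Each of the 10 genes had at least 169 counts in every sample.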
